A study of Mus musculus with 6 samples.

Results

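The NR4A orphan nuclear receptors are a family of 3 genes in the mouse, *Nr4a1* (Nur77), *Nr4a2* (Nurr1) and *Nr4a3* (Nor1). The members were taken by gene symbol, and all 3 of them were found among the 24532 genes of the deposited table and passed the filter on low counts. They were singled out for their lower transcript levels under the *Sirt6* KO label, so their difference between the groups is given as a description with no test. RNA-seq was performed on gastrocnemius (GAS) muscle, a mixed hind limb muscle of mainly fast fibers, from C57BL/6 mice 20 weeks old. The WT group was 3 libraries from *Sirt6* flox/flox mice, which carry loxP sites in both *Sirt6* alleles and no Cre. The *Sirt6* KO group was 3 libraries from *Myl1-Cre*; *Sirt6* flox/flox mice, in which the same floxed alleles meet a Cre recombinase driven by the myosin light chain 1 promoter. That promoter is active mainly in fast (type II) myofibers, and no Cre-only control was among the libraries, so carrying the Cre and losing Sirt6 cannot be told apart here.

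NR4A proteins are transcription factors of the nuclear receptor superfamily whose ligand pocket is filled by bulky side chains, so their activity is set chiefly by how much of them is made. They are immediate-early genes: in skeletal muscle their transcription is turned on quickly by exercise and by adrenergic stimulation through cAMP, protein kinase A and CREB, and by calcium signalling through MEF2, and the transcripts are short-lived. They bind a half-site called NBRE as monomers, and Nr4a1 and Nr4a2 also pair with retinoid X receptors (RXR). In muscle they are known for their roles in glucose use, fat oxidation and oxidative capacity.

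The 3 genes lie on separate chromosomes of the mouse genome, and the gene spans here are those of RefSeq on build GRCm38.p6. Exons, lengths and starts of transcripts are those of the GENCODE M21 models on the same build that GENCODE matches to the RefSeq accessions named. *Nr4a1* spans chr15:101253902-101274795 on the plus strand, and its transcript NM_010444 has 7 exons and 2477 spliced bases. *Nr4a2* spans chr2:57106830-57124003 on the minus strand and has 2 such transcripts of 8 exons each, NM_013613 with 3568 bases and NM_001139509 with 3422 bases, which start at different sites. *Nr4a3* spans chr4:48045078-48086447 on the plus strand, and NM_015743 has 8 exons and 5720 spliced bases. The table has 1 value per gene and library, so transcripts of a gene were not separated.

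Since CREB is the factor through which cAMP induces this family, the sequence around 1 annotated start site of each gene was read for the core of its response element (CRE). The stretches below run 5′ to 3′ on the strand of the gene, from chr15:101266596-101266845 (plus strand), chr2:57124004-57124253 (minus strand) and chr4:48045055-48045152 (plus strand), with CRE cores in capitals (TGACG, or CGTCA for a core on the opposite strand). The *Nr4a3* stretch was ended where the first exon of NM_015743 begins, and the *Nr4a2* stretch lies before the start of NM_001139509, inside the predicted gene LOC105244150, which is not used here.
Nr4a1: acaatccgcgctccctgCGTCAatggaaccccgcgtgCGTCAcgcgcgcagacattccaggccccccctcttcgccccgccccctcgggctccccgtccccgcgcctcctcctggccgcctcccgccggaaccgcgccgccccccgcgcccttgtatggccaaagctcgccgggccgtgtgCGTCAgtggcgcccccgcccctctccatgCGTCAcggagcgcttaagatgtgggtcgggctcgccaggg
Nr4a2: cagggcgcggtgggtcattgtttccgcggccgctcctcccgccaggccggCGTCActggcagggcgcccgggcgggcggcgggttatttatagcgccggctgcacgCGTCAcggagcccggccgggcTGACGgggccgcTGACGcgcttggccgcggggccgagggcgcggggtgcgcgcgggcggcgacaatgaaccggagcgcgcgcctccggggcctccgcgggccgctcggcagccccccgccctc
Nr4a3: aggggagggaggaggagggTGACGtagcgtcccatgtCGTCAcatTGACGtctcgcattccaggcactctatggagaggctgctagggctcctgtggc

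Each NR4A promoter held 4 CRE cores in the 300 bases searched, which run from 250 bases before to 50 bases after the start site that the RefSeq promoter table uses. That site is the start of NM_010444 for *Nr4a1* and of NM_001139509 for *Nr4a2*, but for *Nr4a3* it lies 152 bases inside the first exon of NM_015743 as annotated by GENCODE. The core was searched on both strands, and a full palindromic CRE counts as 2 overlapping cores. At least 1 core was present in 20.8% of the 32851 promoters of the same length, and at least 4 were present in 0.231% of them. The cores of *Nr4a1* began at -233, -213, -69 and -40 bases from the table's start site. Those of *Nr4a2* began at -200, -144, -123 and -111 bases. Those of *Nr4a3* began at -231, -213, -205 and -147 bases from the table's start site. Counted from the start of NM_015743 they began at -79, -61, -53 and 6, so 3 of the 4 lie before that transcript, in the printed stretch, and the other lies in its first exon. The full palindrome TGACGTCA, held by 1.79% of all promoters, was not matched in any of the 3, and neither was the NBRE AAAGGTCA (1.51% of promoters) or the CArG box of SRF (1.63%). *Nr4a2* also held 1 TATAAA match (13.6% of promoters), which overlaps its 1 match to the MEF2 site (3.19%), and the GC box GGGCGG was found 3 times in *Nr4a1*, 5 times in *Nr4a2* and 1 time in *Nr4a3* (at least 1 in 35.7%). These matches describe letters in a window that differs in base composition between promoters, since the printed stretches are 74.4%, 80% and 61.2% G and C, and occupancy by a factor was not measured.

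**Figure D1:**
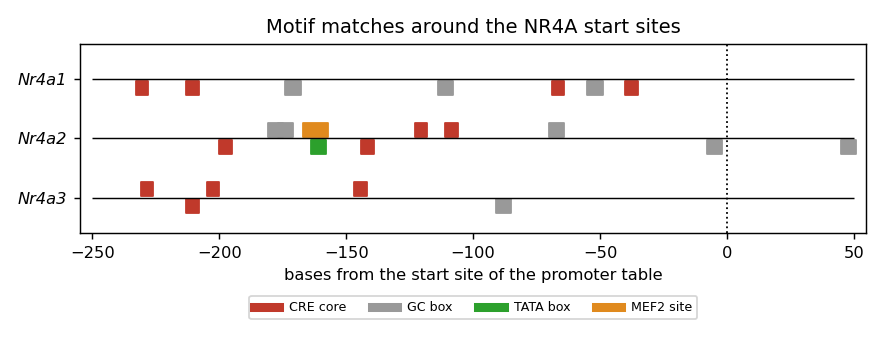
Motif matches in the 300-base window around the start sites that the RefSeq promoter table uses for the NR4A genes, with distance from that site in bases on the x axis and 1 line per gene. Boxes above a line are matches on the strand of the gene and boxes under it matches on the opposite strand; each gene has 4 CRE cores (red) before that site, the rightmost *Nr4a3* core being inside the first exon of NM_015743.

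Library totals lay between 44845763 and 63016899 counts, with WT library 3 the deepest. Skeletal muscle transcripts were abundant in every library, with the summed TPM of 8 markers between 186749 and 258538. *Sirt6* itself, the gene targeted, was higher in the KO-labelled libraries, with log2 fold change 1.48 (SE 0.17, adjusted p = 0.0113 by the quasi-likelihood test of edgeR, adjusted by Benjamini-Hochberg), so every direction below rests on the sample labels. Without *Sirt6* KO library 1 or 3 the adjusted p for *Sirt6* by the same test was 0.0606 or 0.0650. With 1 value per gene and library, reads from the floxed exons were not separated from the rest of *Sirt6*. Across all genes tested, 2242 of 13801 passed an adjusted p of 0.05 (16.2%), of which 1158 were lower (8.39%) and 1084 were higher (7.85%) in *Sirt6* KO muscle, and the median log2 fold change was -0.02. These calls depended on single libraries. Left out in turn, *Sirt6* KO libraries 1, 2 and 3 left 8, 873 and 13 genes called, and WT libraries 1, 2 and 3 left 440, 249 and 4582. WT library 3 also stood apart from the other WT libraries by its low slow fiber transcripts, given with the family's own spread below.

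*Nr4a1* was the most abundant member in every library. Levels are given as TPM, in which all transcripts of a library add up to a fixed sum and which are scaled to transcript length and can be compared between genes, and as CPM (counts relative to the library total after TMM scaling), on which the fold changes rest. WT libraries 1, 2 and 3 had 578, 738 and 341 TPM of *Nr4a1*, and *Sirt6* KO libraries 1, 2 and 3 had 74.4, 122 and 68.5 TPM. The lowest WT library was thus above the highest *Sirt6* KO library, by 2.88-fold in CPM. The mean CPM was 615 ± 187 (SD, n = 3) in WT and 108 ± 37.7 in *Sirt6* KO muscle, a log2 fold change of -2.50 (SE 0.31), or 5.67-fold lower.

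*Nr4a3* had the lowest log2 fold change of the family. WT muscle had 167, 272 and 109 TPM of it by library, and *Sirt6* KO muscle 2.33, 7.13 and 1.82 TPM. The groups were far apart, with 15.8-fold between the lowest WT and the highest *Sirt6* KO library in CPM. The mean CPM was 457 ± 188 in WT and 10.3 ± 8.30 in *Sirt6* KO muscle, a log2 fold change of -5.47 (SE 0.65), or 44.2-fold lower. The *Sirt6* KO libraries were not alike: library 2 had 1205 counts, where libraries 1 and 3 had 356 and 275, and without library 2 the log2 fold change was -6.35.

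*Nr4a2*, best known from dopaminergic neurons, was the rarest member in this muscle. By library it reached 8.52, 5.22 and 1.37 TPM in WT muscle and 0.267, 0.525 and 0.389 TPM in *Sirt6* KO muscle. The WT libraries differed among themselves by 5.01-fold in CPM, more than those of *Nr4a1* (1.85-fold) or *Nr4a3* (2.14-fold), and still did not overlap with the *Sirt6* KO libraries. The mean CPM was 6.96 ± 4.52 in WT and 0.629 ± 0.216 in *Sirt6* KO muscle, a log2 fold change of -3.46 (SE 0.60), or 11.0-fold lower.

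Counting error was small beside these differences, also for *Nr4a2*. Its counts were 562, 347 and 129 in the WT libraries and 24, 51 and 35 in the *Sirt6* KO libraries. The 95% exact Poisson interval of the lowest WT library ran from 1.88 to 2.67 CPM, and that of the highest *Sirt6* KO library from 0.626 to 1.11 CPM. Intervals of this kind cover counting error only. *Nr4a1* and *Nr4a3* had at least 275 counts in every library.

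In the order of log2 fold change over all tested genes, *Nr4a3*, *Nr4a2* and *Nr4a1* stood at places 8, 25 and 72 from the most decreased. Groups that do not overlap were common in this table: 40.0% of tested genes had them, 19.6% with *Sirt6* KO libraries lower, and nothing is read from the members' own separation, which was used to choose them. Leaving out each library in turn kept the log2 fold change of *Nr4a1* between -2.81 and -2.25, of *Nr4a2* between -3.88 and -2.92 and of *Nr4a3* between -6.35 and -5.08. Without WT library 3, the values were -2.69, -3.88 and -5.67. In whole muscle, fewer cells that make a transcript and less transcript per cell cannot be told apart.

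**Figure D2:**
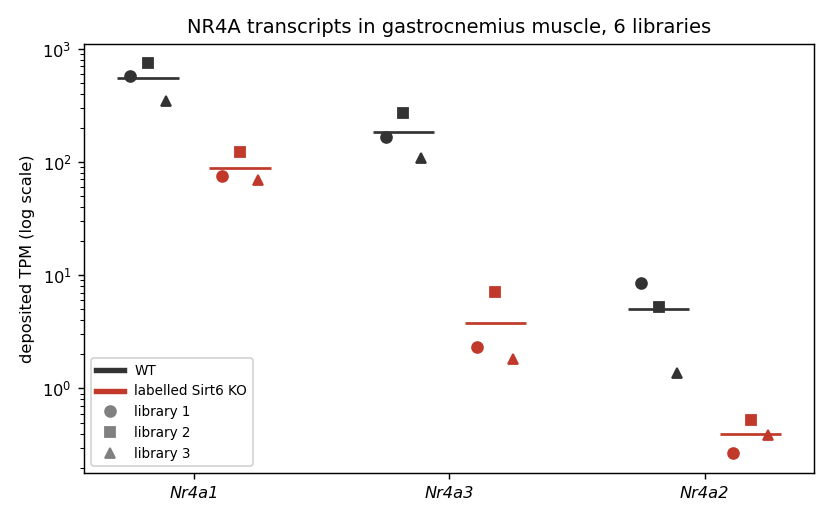
TPM (log scale) of *Nr4a1*, *Nr4a3* and *Nr4a2* in each of the 3 WT (black) and 3 *Sirt6* KO (red) libraries, with symbol shape for the library number and a line for the group mean. For each gene the 3 *Sirt6* KO libraries lie under the 3 WT libraries, and *Nr4a3* goes from 109 TPM or more to 7.13 TPM or less.

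The make-up of the family differed between the groups as well as its amount. The summed TPM of the 3 members was 753, 1015 and 452 in WT libraries and 76.9, 129.8 and 70.7 in *Sirt6* KO libraries (means 740 ± 282 and 92.5 ± 32.5). In WT muscle *Nr4a1* made up 75.0% ± 2.06 and *Nr4a3* 24.3% ± 2.32 of that sum. In *Sirt6* KO muscle *Nr4a1* made up 95.9% ± 1.53 and *Nr4a3* 3.70% ± 1.57. The share of *Nr4a2* was 0.650% ± 0.430 and 0.434% ± 0.105. *Nr4a1* was 3.46, 2.72 and 3.14 times as abundant as *Nr4a3* in the WT libraries and 31.9, 17.1 and 37.6 times in the *Sirt6* KO libraries, with no overlap. This ratio is built from the same contrast that chose the genes and was not tested.

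Set against all nuclear receptors of the mouse, *Nr4a1* and *Nr4a3* were the 2 most abundant by TPM among 49 receptor genes in each WT library. In the *Sirt6* KO libraries *Nr4a1* stood at places 5, 1 and 6 and *Nr4a3* at places 28, 22 and 29. *Nr4a2* stood at places 23, 30 and 31 in WT and at place 32 in each *Sirt6* KO library. Among all 24532 genes, *Nr4a1* was at places 225, 164 and 336 by TPM in the WT libraries and at places 1454, 873 and 1489 in the *Sirt6* KO libraries. *Nr4a3* went from places 762, 471 and 1033 to places 9793, 7068 and 10126. The NR4A genes held 46.2%, 53.4% and 36.3% of all nuclear receptor TPM in the WT libraries, and 8.28%, 14.5% and 7.98% in the *Sirt6* KO libraries. The summed TPM of the 46 other receptors was 878, 885 and 794 in WT and 853, 768 and 816 in *Sirt6* KO libraries, so that sum overlapped between the groups. The NR4A sum did not, but its genes were chosen for being lower under the *Sirt6* KO label. Groups did not overlap for 40.0% of all tested genes either, so nothing is read from this difference between the sums.

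**Figure D3:**
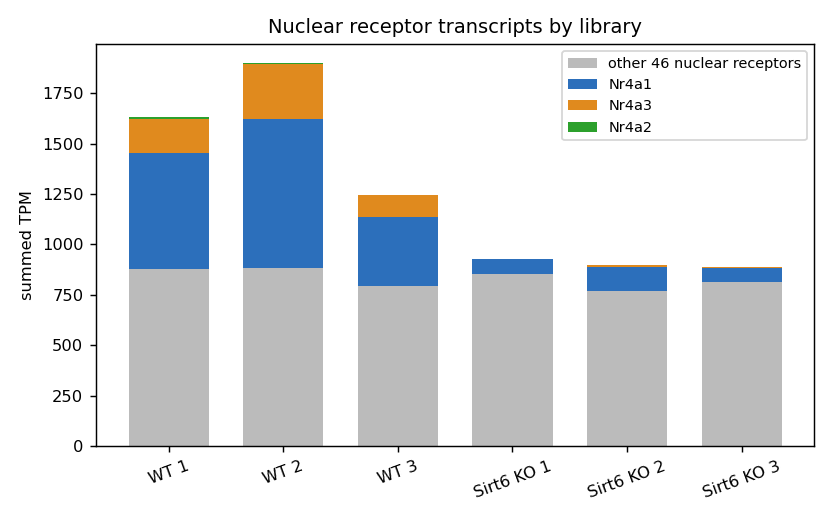
Summed TPM of 49 nuclear receptor genes in each library, as stacked bars from 0, with the 46 receptors outside the family in gray and the NR4A genes in color. The gray part lies between 768 and 885 TPM in all 6 libraries, and the NR4A part goes from 452 TPM or more in WT to 129.8 TPM or less in *Sirt6* KO libraries.

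Among the 46 other nuclear receptors, 30 passed the filter on low counts, of which 5 were lower and 2 were higher in *Sirt6* KO muscle (23.3%, against 16.2% of all genes). Their median log2 fold change was -0.09, against -0.02 over all genes. The log2 fold changes of those called lay between -0.97 and 0.84. Those of the NR4A genes were larger in size, which follows from how the NR4A genes were chosen. *Nr3c1*, the glucocorticoid receptor, fell from 177, 194 and 195 CPM in the WT libraries to 99.4, 94.5 and 93.9 CPM (log2 fold change -0.97, SE 0.10, adjusted p = 0.0110 by edgeR). *Rora* and *Nr1d2*, receptors of the circadian clock, fell by 0.85 (SE 0.18) and 0.67 (SE 0.12) on the log2 scale. *Thrb*, a thyroid hormone receptor, fell by 0.65 (SE 0.12), and *Ppard*, a fatty acid sensor that drives oxidative genes in muscle, fell by 0.61 (SE 0.12). *Nr1h2*, an oxysterol receptor, rose from 27.7, 24.0 and 29.4 CPM to 48.0, 45.7 and 51.7 CPM, by 0.84 (SE 0.11).

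*Ppara*, the fatty acid receptor, had a log2 fold change of -2.48 close to that of *Nr4a1* but with a larger SE of 0.78, and was not called (adjusted p = 0.0680). It was named after its values were seen. It had 112, 171 and 23.7 CPM in WT muscle and 6.89, 32.9 and 15.1 CPM in *Sirt6* KO muscle by library, and there WT library 3 lies under *Sirt6* KO library 2. The RXR partners of the family did not pass the test: the log2 fold change was 0.18 (SE 0.16) for *Rxra*, 0.09 (SE 0.10) for *Rxrb* and 0.46 (SE 0.24) for *Rxrg*. Leaving out WT libraries 1, 2 and 3 left 4, 2 and 17 of the 30 receptors called, and leaving out *Sirt6* KO libraries 1, 2 and 3 left 0, 3 and 0. With the trend over GC content removed, 3 were called.

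**Figure D4:**
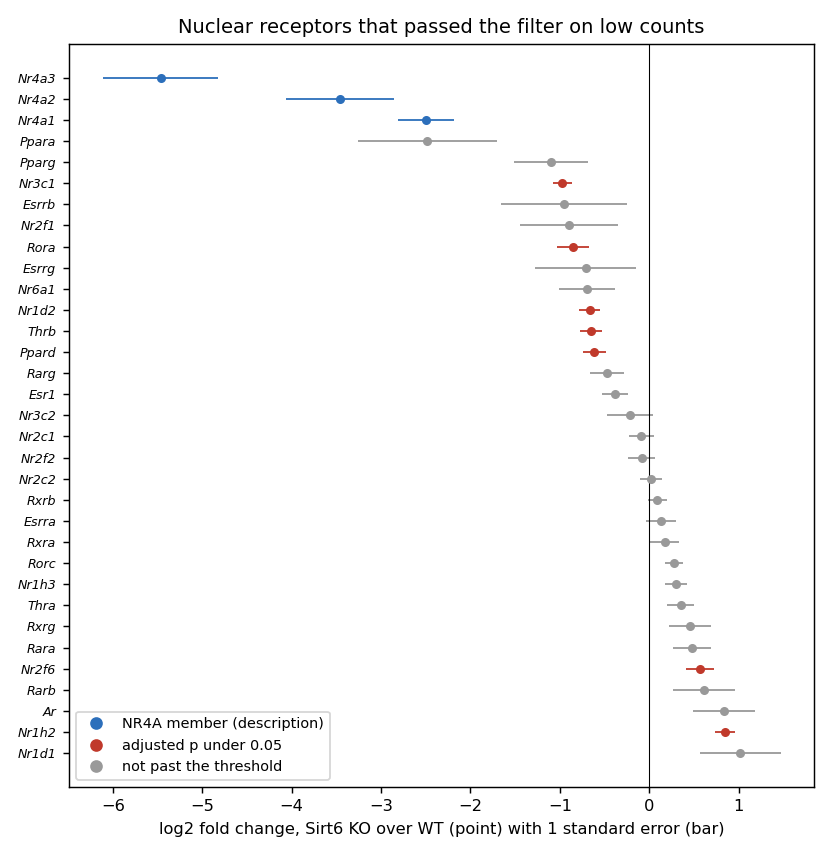
Log2 fold change, *Sirt6* KO over WT, with 1 SE as a bar, for the 3 NR4A genes (blue) and the 30 other nuclear receptors that passed the filter on low counts (red where the adjusted p was under 0.05, gray otherwise). The NR4A genes lie at -5.47, -3.46 and -2.50, and the called receptors outside the family between -0.97 and 0.84.

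Genes upstream of NR4A transcription were taken as a list of 31 genes of the adrenergic, cAMP, calcium and SRF routes. Of these, 29 were tested. The list holds activators as well as genes that restrain them, such as *Sik1*, so its count and median mix both kinds. In this list 3 genes were lower, 2 were higher and 24 did not pass (17.2%, against 16.2% of all genes), and the median was -0.15. The share called was near that of all genes, so nothing is read from it about the cAMP and CREB route. On that route *Crtc1* rose, as given below, and *Gnas*, *Prkaca*, *Atf1*, *Crtc2* and *Crtc3* did not pass. The 3 genes that were lower were *Sik1*, *Crem* and *Creb1*. *Sik1*, a kinase that is itself induced by cAMP and shuts CREB coactivators out of the nucleus, fell from 121, 174 and 41.3 CPM to 19.3, 28.0 and 17.7 CPM (log2 fold change -2.37, SE 0.48). *Crem*, which encodes CREB-like activators and the cAMP-induced repressor ICER, fell by 2.15 (SE 0.17). *Creb1*, which encodes CREB, fell by 0.96 (SE 0.15).

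The other pair rose. *Crtc1*, one of the CREB coactivators, went from 8.84, 7.28 and 11.8 CPM in the WT libraries to 19.3, 16.1 and 19.8 CPM in the *Sirt6* KO libraries, with no overlap (log2 fold change 0.98, SE 0.19). *Camk2g*, a subunit of a calcium-activated kinase, rose from 155, 153 and 185 CPM to 265, 210.4 and 242 CPM, by 0.54 (SE 0.14) on the log2 scale. *Creb1* and *Crem* were among the genes the study had chosen on these libraries, and *Sik1* among those it measured again, so none of these is independent evidence of its direction. Leaving out WT libraries 1, 2 and 3 left 2, 1 and 8 genes of the list called, and leaving out *Sirt6* KO libraries 1, 2 and 3 left 1, 4 and 1. With the GC trend removed 3 were called, the 2 genes that rose not among them.

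NR4A proteins act with partners and corepressors, and 1 of 19 tested genes on that list changed (5.26%, against 16.2% of all genes), with a median log2 fold change of 0.09. This was *Nrip1*, which encodes RIP140, a corepressor of nuclear receptors that restrains oxidative genes in muscle. It fell from 47.8, 43.5 and 47.0 CPM to 29.0, 27.2 and 22.8 CPM (log2 fold change -0.81, SE 0.12, adjusted p = 0.0132 by edgeR). Without *Sirt6* KO library 1 or 3 no gene of this list was called, and without WT library 3, 6 were.

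On the output side, a list of 22 genes of glucose, glycogen and fat metabolism was examined, among them enzymes and transporters that work on NR4A receptors in muscle has named and others of the same pathways. All 22 were tested, and 2 were lower, 2 were higher and 18 did not pass (18.2%, against 16.2% of all genes), with a median log2 fold change of -0.06. *Ppargc1a*, which encodes the mitochondrial coactivator PGC-1α, fell from 764, 1703 and 515 CPM to 45.6, 169.7 and 92.2 CPM (log2 fold change -3.28, SE 0.61), and was likewise among the genes the study had chosen on these libraries. *Fbp2*, the muscle fructose bisphosphatase, fell from 10.3, 13.0 and 17.5 CPM to 5.95, 5.35 and 6.66 CPM (-1.19, SE 0.21). *Pdp1*, a phosphatase that switches pyruvate dehydrogenase on, rose from 36.0, 40.8 and 33.9 CPM to 143, 117 and 123 CPM (1.79, SE 0.13). *Prkag3*, the AMPK subunit of fast glycolytic fibers, rose from 88.5, 97.1 and 199.5 CPM to 445, 268 and 311 CPM (1.41, SE 0.34). Leaving out WT libraries 1, 2 and 3 left 2, 1 and 11 of these genes called, and leaving out *Sirt6* KO libraries 1, 2 and 3 left 1, 2 and 1.

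Immediate-early genes, with which the NR4A genes are commonly induced, were in part lower as well. Of 31 other immediate-early genes, 28 were tested, 9 were lower and 0 were higher in *Sirt6* KO muscle (32.1% called, against 8.39% of all genes called lower), 26 of the 28 had a log2 fold change below 0, and their median was -1.23, against -0.02 over all genes. *Fos*, a subunit of AP-1, had 63.0, 22.3 and 8.50 CPM in WT and 2.68, 4.12 and 2.00 CPM in *Sirt6* KO muscle by library, and fell by 3.41 (SE 0.71) on the log2 scale. *Maff*, a small Maf factor, fell by 3.66 (SE 0.67), and *Atf3*, a stress-induced repressor of the CREB family, fell by 3.12 (SE 0.53). *Zfp36*, which speeds the decay of AU-rich transcripts, fell by 2.11 (SE 0.31).

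The phosphatase gene *Dusp2* fell by 1.92 (SE 0.26) and *Ier5* by 1.58 (SE 0.43). *Maff*, *Atf3* and *Zfp36* were also chosen by the study on these libraries and are not independent evidence of the direction. DESeq2 called 15 genes of the list. Leaving out WT libraries 1, 2 and 3 left 3, 3 and 14 genes called, and leaving out *Sirt6* KO libraries 1, 2 and 3 left 0, 6 and 1. At least 1 CRE core was found in 17 of the 30 RefSeq promoters of this list (56.7%, against 20.8% of all promoters). Most other motifs searched were also more frequent there. They were the GC box (70%, against 35.7%), the CArG box (16.7%, against 1.63%) and the TATA box (16.7%, against 13.6%). The MEF2 site (10%, against 3.19%) and the full CRE (10%, against 1.79%) were too, and the NBRE was not (0%, against 1.51%). Base composition was not matched, and occupancy by a factor was not measured.

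Genes next to the NR4A loci were called at a share near that of all genes. Within 250 kb of a member, RefSeq places 43 other genes, of which 27 were in the table and 11 were tested, 7 of them near *Nr4a1*. Of the 11, 1 was higher and 1 was lower (18.2%, against 16.2% of all genes), and the median log2 fold change was -0.19. *Acvr1b*, an activin receptor gene 40218 bases from *Nr4a1*, rose from 24.8, 31.9 and 32.0 CPM to 57.8, 48.1 and 56.7 CPM (log2 fold change 0.87, SE 0.14). *Erp44*, an endoplasmic reticulum chaperone gene 104264 bases from *Nr4a3*, fell from 42.0, 43.2 and 60.7 CPM to 31.2, 33.6 and 31.1 CPM (-0.61, SE 0.16). DESeq2 called 4 of these neighbours, the GC correction left 1 and no filter on low counts left 1. Leaving out WT libraries 1, 2 and 3 left 1, 1 and 7 called, and leaving out *Sirt6* KO libraries 1, 2 and 3 left 0, 1 and 0.

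Within each group the members varied together in part. WT library 3 was the lowest WT library for all 3 members, and *Sirt6* KO library 2 the highest *Sirt6* KO library for all 3. WT library 2 was the highest for *Nr4a1* and *Nr4a3*, and WT library 1 for *Nr4a2*. With the group means taken off, the log2 CPM of *Nr4a1* and *Nr4a3* correlated with r = 0.95 over the 6 libraries, that of *Nr4a1* and *Nr4a2* with r = 0.67, and that of *Nr4a2* and *Nr4a3* with r = 0.46. Of 11624 candidate genes, *Nr4a3* stood at place 219 in likeness to *Nr4a1*. These are descriptions over 6 libraries that share their scaling, and many genes reach a high r with so few points: 215 genes had an r above 0.95 with *Nr4a1* after the group means were taken off.

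With the group difference left in, the genes most like *Nr4a1* by correlation of log2 CPM over 6 libraries were *Anxa1*, *Mterf3* and *Cox20*. Those most like *Nr4a2* were *Fam49a*, *Iqsec1* and *Usp12*, and those most like *Nr4a3* were *Gcc2*, *Pak2* and *Cox20*. Each of these had an r above 0.99, but none of them was among the first 3 when log2(TPM + 0.1) was used in place of log2 CPM. After the group means were taken off, *Kiz*, *Ak4* and *Dusp18* led for *Nr4a1*, *Rbm4*, *Hp* and *Fam49a* for *Nr4a2*, and *Htra2*, *Dnajc25* and *Taco1* for *Nr4a3*. Of these 9 genes, 1 was again among the first 3 with log2(TPM + 0.1).

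The spread of the family within groups was set beside the markers of fiber types and other cells. The summed TPM of 8 slow fiber markers, such as the slow myosin *Myh7*, came to 6592, 5967 and 513 in WT and to 798, 3358 and 1025 in *Sirt6* KO muscle by library. The list includes *Myh2*, the type IIa myosin, which made up much of the low sums. *Myh2* had 1473, 1937 and 399 TPM in WT and 452, 882 and 512 TPM in *Sirt6* KO libraries. *Myh7* had 451, 357 and 6.93 TPM in WT and 34.7, 237 and 53.3 TPM in *Sirt6* KO libraries. The library lowest in both measures in WT was library 3, and the library highest in both in the *Sirt6* KO group was library 2. Across the groups the order differed: WT library 3 had fewer slow fiber transcripts than any other library and an NR4A sum of 452 TPM, against 129.8 TPM in *Sirt6* KO library 2. No slow fiber marker passed the test. The part of slow fiber content in the NR4A values was not tested.

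**Figure D5:**
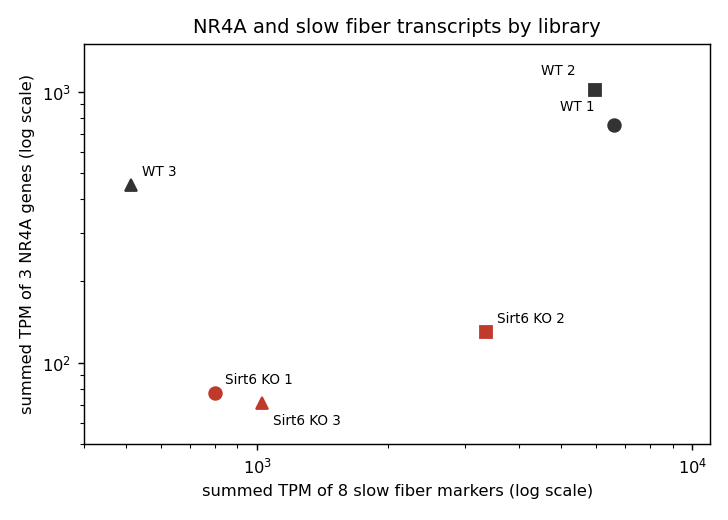
Summed TPM of the 3 NR4A genes against the summed TPM of 8 slow fiber markers, both on log scales, with 1 point per library (WT in black, *Sirt6* KO in red). The 8 markers include *Myh2*, the type IIa myosin. WT 3 has the lowest slow fiber sum, 513 TPM, and an NR4A sum of 452 TPM, above the 129.8 TPM of *Sirt6* KO 2 with a slow fiber sum of 3358 TPM.

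Markers of other cell types overlapped between the groups as summed TPM. Macrophage and leukocyte markers summed to 27.2 to 125 TPM in WT and 28.9 to 54.2 TPM in *Sirt6* KO libraries, and 1 of 8, *Cd14*, was called, falling by 1.15 (SE 0.24) on the log2 scale. Endothelial markers summed to 82.4 to 173 TPM and 95.3 to 105 TPM, fibroblast markers to 402 to 886 TPM and 406 to 457 TPM, adipocyte markers to 361 to 749 TPM and 444 to 593 TPM, and erythroid markers to 122 to 1020.1 TPM and 240.0 to 505 TPM, with 0 genes called in each list. No marker was at 0 in all libraries. WT library 3 had the lowest endothelial, fibroblast, adipocyte and erythroid sums of the WT group, and also its lowest NR4A sum. The part of these cells in the NR4A values was not tested. The 8 skeletal muscle markers did not overlap as a sum, at 186749 to 231134 TPM in WT and 239261 to 258538 TPM in *Sirt6* KO libraries, and 0 of them were called.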

How the data were processed

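RNA-seq of GAS muscle, with 3 WT and 3 *Sirt6* KO libraries, was analysed from the table the authors deposited, which is aligned to mm10. The submitters' processing notes name HISAT2 2.1.0, Bowtie2 2.3.4.1 and StringTie 2.1.3b, the study's reporting summary names STAR, and whether counting used strand is not given in the sources used here. The authors deposited whole-number counts for each gene, not normalized between libraries. The authors also deposited FPKM, relative to library size and length, and TPM, relative to a fixed sum per library. Groups came from the sample labels, which give replicate numbers and do not state separate animals. P-values measure the spread between these libraries.

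The fit used edgeR 4.0.16 in R 4.3.3, with filterByExpr (13801 genes kept), TMM, a quasi-likelihood fit by group and Benjamini-Hochberg adjustment at 0.05. The method was tested on simulated counts drawn independently for each library, a setting that does not carry the dependence on single libraries seen here. Motifs were searched on both strands of 32851 RefSeq promoters. 1 count was worth 0.0165 to 0.0212 CPM, with a common biological coefficient of variation of 24.1%. The members and lists were chosen with earlier results of these data known. Besides the members and *Sirt6*, the genes named per list are up to 6 of those called with the largest absolute log2 fold change. The 3 RXR genes and, per member, the 3 genes most like it were named too. Outside that rule, *Ppara*, *Gnas*, *Prkaca*, *Atf1*, *Crtc2* and *Crtc3*, which were not called, and the markers *Myh7*, *Myh2* and *Cd14* were also named. Alternatives were DESeq2 1.42.0, its size factors, other filters, limma 3.58.1 on log2(TPM + 0.1) or on log2(FPKM + 1) after quantile normalization, a replicate block, each library left out and, added after seeing the data, removal of the trend over GC content.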

Additional observations from a re-analysis of the deposited data

How the results depend on the processing

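The 3 NR4A genes were chosen for being lower in these same libraries, so nothing is read from the sign here. Their log2 fold changes stayed below 0 under every alternative run. That of *Nr4a2* was -1.22 with limma on quantile-normalized log2(FPKM + 1), which changes the tool, the scaling and the pseudocount together; their separate parts were not tested. Over all genes, DESeq2 called 3531 (1801 lower, 1730 higher) and the GC correction left 978 (489 lower, 489 higher). With limma on log2(TPM + 0.1), 1288 were lower and 754 higher. Of the other nuclear receptors 3, of the upstream genes 3 and of the neighbours 1 were called with the GC correction. DESeq2 called 15 immediate-early genes and 4 neighbours, limma on FPKM 2 partners, and no filter 1 neighbour.

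Leaving out each library in turn gave log2 fold changes of -6.35 to -5.08 for *Nr4a3* and 1.37 to 1.55 for *Sirt6*. It gave 8 to 4582 genes called over all genes (2 to 2219 lower, 6 to 2363 higher) and 0 to 17 of the other nuclear receptors. In the other lists it gave 1 to 8 upstream genes, 0 to 6 partners, 1 to 11 metabolic genes, 0 to 14 immediate-early genes and 0 to 7 neighbours. Of 28 genes named from the lists, 26 lost their call without *Sirt6* KO library 1, 25 without library 3 and 0 without WT library 3, and none changed sign. The cause was not tested.

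The deviations of same-numbered libraries correlated with r = -0.11, 0.26 and 0.16, so the numbers were not taken as a pairing. With the replicate block 1922 genes were called (2242 without it), 4 of the 28 named genes lost their call, and the NR4A log2 fold changes were -2.51, -3.23 and -5.67.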
